A study of Mus musculus with 4 samples.

Results

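Gene expression of Srf-knockdown neural progenitor cells (NPCs) was compared with that of control NPCs across the transcriptome, at a low and a higher stiffness of the culture matrix. N31 NPCs, a mouse line differentiated from iPSCs that carries Dox-inducible Oct4, Klf4, c-Myc and Sox2 (OKMS), gave the control libraries (control_0.5kPa and control_12kPa). N31 NPCs into which a short hairpin RNA against Srf had been brought by a retrovirus gave the Srf-knockdown libraries (shSrf_0.5kPa and shSrf_12kPa). All cells grew without EGF and bFGF on matrices of 0.5 or 12 kPa above type I collagen. The 4 libraries, all that the series holds, were joined into 2 pairs by stiffness, each with 1 Srf-knockdown and 1 control library. By the methods of the paper, retrovirus-infected cells were put under puromycin selection, except where reprogramming efficiency was examined. Each population is a single line, and whether the control cells carried a control vector or went through this selection is not stated.

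All 21862 gene symbols listed once were members, and the quantity followed was the log2 ratio of FPKM (reads mapped to a transcript, scaled by its length and by the depth of the library) between Srf-knockdown and control NPCs at each stiffness. A gene was included when its FPKM was above 2 in all 4 libraries, which held for 10489 genes. It was said to have fallen or risen when both of its ratios, one per stiffness, were past 2-fold and had the same sign. A gene was lost when it was above 2 in both control libraries, at or below 2 in both Srf-knockdown libraries and past 2-fold in both pairs, and gained in the reverse case. With 1 library per condition the classes rest on folds and not on p-values, and the agreement between the pairs is the only repeat of a ratio. The pairs share no library, but both Srf-knockdown libraries come from the same population, so that their agreement does not separate the knockdown from other differences between the populations.

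Srf is a transcription factor of the MADS box family that binds the CArG box in DNA. It works with partners that compete for it. Mkl1 and Mkl2 are held in the cytoplasm by actin monomers and, when actin polymerizes, carry Srf to genes of the contractile apparatus and the cytoskeleton. The ternary complex factors (TCFs) Elk1, Elk3 and Elk4 respond to MAP kinases and bring it to early-response genes such as Fos and Egr1. Cells on a stiff matrix build more actin fibers and so free Mkl1 to enter the nucleus.

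Srf itself was at an FPKM of 34.4 and 35.6 in control NPCs (here and below the value at 0.5 kPa comes first, then that at 12 kPa) and at 16.2 and 17.4 in Srf-knockdown NPCs. It was thus 2.12-fold and 2.04-fold lower, and both knockdown libraries lay below both control libraries. Its partners stayed within 2-fold. Mkl1 went from 34.6 and 30 to 23.9 and 27.5, Mkl2 from 10.8 and 9.63 to 8.4 and 8.44, and Elk1, Elk3 and Elk4 had log2 ratios between -0.18 and 0.38. The libraries were estimated to hold 24100000 to 62300000 reads, the Srf-knockdown libraries being the deeper ones, so 3 reads on a transcript of 2000 nucleotides stood for an FPKM of 0.0268 to 0.0691. Where a standard error is given below, it covers the counting of these estimated reads only. Gapdh was 1.08-fold higher in both pairs, and the median log2 ratio over the included genes was 0.011 and 0.0098.

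Of the 10489 included genes, 179 (1.71%) fell and 183 (1.74%) rose. Of the 10730 genes above 2 in both control libraries a further 87 (0.811%) were lost, and of the 10866 genes at or below 2 in both a further 144 (1.33%) were gained. The 593 genes of these classes make up 5.34% of the 11099 genes that were above 2 in both libraries of at least 1 population. Of these 11099 genes 2.40% fell or were lost and 2.95% rose or were gained. The counts in gene lists below stand beside these shares. Lost and gained genes lie below 2 in the lower population by definition, so their folds are large by selection. In the median the log2 ratio, averaged over the pairs, was -1.43 for genes that fell, 1.37 for those that rose, -2.0 for the lost and 1.95 for the gained. Past 4-fold in both pairs were 21 genes that fell, 23 that rose, 34 lost and 51 gained.

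The pairs agreed closely. At 0.5 kPa 300 included genes (2.86%) were lower and 257 (2.45%) higher past 2-fold, and at 12 kPa 233 (2.22%) and 287 (2.74%). In all, at 0.5 kPa 557 genes were past 2-fold and at 12 kPa 520, and 362 genes (3.45%) were past it the same way in both, which is 65% of the former and 69.6% of the latter. A single gene, Gm17349, was past it in opposite directions. Among genes past 2-fold at 0.5 kPa, 551 of 557 had the same sign at 12 kPa. The ratio at 12 kPa differed from that at 0.5 kPa by 0.12 (log2) in the median, and by 0.16 among the genes that fell or rose. For comparison, 24 included genes in control and 9 in Srf-knockdown NPCs were past 2-fold between the stiffnesses. The 2-fold line does not separate distinct groups. The smaller ratio of 82 of the 362 genes lay within 0.1 (log2) inside it, and that of 132 further genes within 0.1 outside it.

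**Figure D1:**
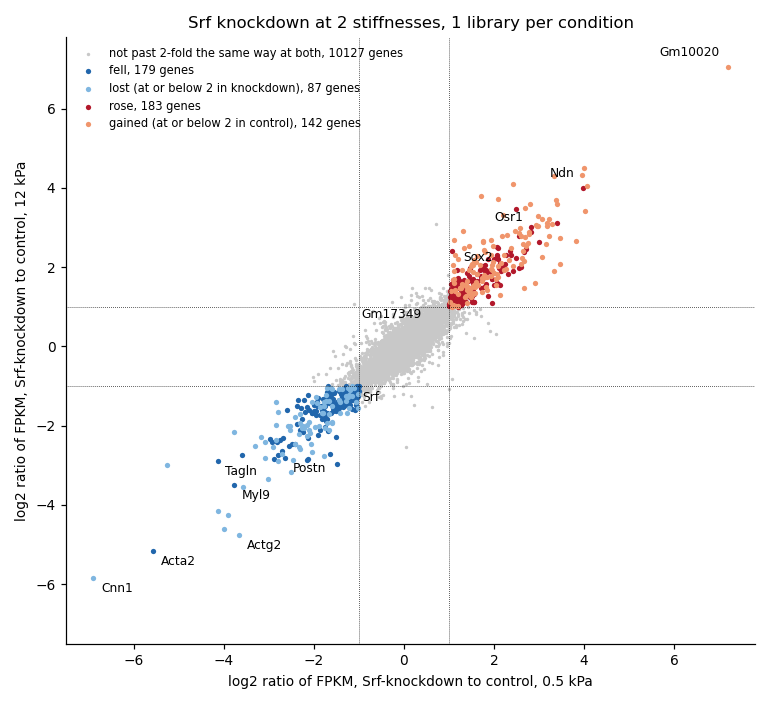
Log2 ratio of FPKM of Srf-knockdown to control NPCs at 0.5 kPa (x axis) and at 12 kPa (y axis), 1 point per gene, with the classes in colors and dotted lines at 2-fold. Called genes lie along the diagonal, from Cnn1 and Acta2 at the lower left to Gm10020 at the upper right, and Gm17349 lies off it. The 2 gained genes listed at 0 in a control library have no ratio and are left out.

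CArG boxes were searched in the promoter windows of RefSeq (GRCm38.p6, 250 bases before to 50 after the start site). The letters searched were a run of A and T of the length of this box between CC and GG, which reads as the same pattern on both strands. Of the genes that fell, 134 had a window, and 8 of them (5.97%) held the box. Of the lost genes with a window it was 3 of 56 (5.36%). The share was 2.16% among genes that rose, 2.13% among the gained, 1.51% among included genes and 1.81% among all genes with a window. These shares are descriptions of small numbers. A match is not a bound site, and a window without one says only that these letters are absent there.

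A selection of the boxes in windows of genes that fell or were lost is shown as examples of the sequence that Srf binds, with the box in capitals. Srf has a pair of boxes in its own promoter. Myl9 encodes a regulatory light chain of myosin, Fhl1 a LIM protein of muscle, Fermt2 the integrin activator kindlin-2, Rhoj a small GTPase, Ldb3 a protein of the muscle Z disc and Dmd dystrophin.
Srf (chr17:46556225-46556254, minus strand): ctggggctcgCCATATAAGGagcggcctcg
Srf (chr17:46556205-46556234, minus strand): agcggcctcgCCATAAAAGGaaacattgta
Myl9 (chr2:156775293-156775322, plus strand): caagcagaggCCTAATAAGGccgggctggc
Fhl1 (chrX:56779571-56779600, plus strand): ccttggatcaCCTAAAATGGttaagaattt
Fermt2 (chr14:45530250-45530279, minus strand): tccttcatttCCATAAAAGGgcagcgctcc
Rhoj (chr12:75308306-75308335, plus strand): gcccactgatCCTAATATGGaatgcagcag
Ldb3 (chr14:34588697-34588726, minus strand): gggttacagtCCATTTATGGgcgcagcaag
Dmd (chrX:82948762-82948791, plus strand): catgggcagtCCTATTATGGgaaagcaact
The other boxes among these genes lay in the windows of Cbr2, Prkab2, Npm3 and Cyp1a1. Boxes were also found in windows of Prickle3, Nfix and 4930524J08Rik, which rose, and of Sema4d and Tbc1d9, which were gained. The windows of Acta2 and Cnn1, the leading genes that fell or were lost, held none, and Tagln, Actg2 and Egr1 had no window to search. Measured from the start site, the boxes of Srf began at -82 and -62, that of Myl9 at -161, that of Fhl1 at -102, that of Fermt2 at -204, that of Ldb3 at -35 and that of Dmd at -98, and that of Rhoj began at 4. Fermt2 fell from an FPKM of 90.9 and 84.9 to 32.5 and 32.4, and Rhoj from 10 and 10.7 to 2.13 and 2.4. Dmd was lost, from 3.74 and 5.31 to 1.23 and 1.87.

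Smooth muscle contractile genes that Srf and Mkl1 drive were the list with the largest share of lower genes. Of 17, 15 were above 2 in both libraries of a population, and 5 of these fell and 3 were lost, against 2.40% of all genes that fell or were lost. No member rose or was gained. The median log2 ratio over the 12 included members was -0.77 and -0.59. Cnn1 and Acta2 had the largest folds of the list. Acta2, smooth muscle α-actin (chr19:34240336-34255585 of GRCm38), was at 321 and 322 in control and at 6.74 and 8.96 in Srf-knockdown NPCs, 47.7-fold and 36-fold lower. Myl9 (chr2:156775408-156781657) went from 346 and 382 to 25.1 and 33.7. Tagln, the actin-binding protein transgelin, went from 298 and 242 to 16.9 and 32.6 and was 17.6-fold and 7.43-fold lower, so that its pairs differed by 1.24 (log2). Calponin, Cnn1 (chr9:22099221-22109221), was lost, from 95 and 76.1 to 0.795 and 1.32, which is 120-fold and 57.7-fold, with log2 standard errors of 0.16 and 0.11. Actg2, smooth muscle γ-actin, stood at 8.61 and 9.13 in control and at 0.682 and 0.339 in Srf-knockdown NPCs, on as few as 23.9 estimated reads. Reads of Actg2 and Acta2, which encode near-identical proteins, can be split between them. The fall of Actg2 need therefore not be independent of that of Acta2. Leiomodin, Lmod1, was lost from 3.33 and 3.67 to 0.669 and 0.608. Csrp1, a LIM protein of actin bundles, fell from 300 and 268 to 89.2 and 94.5, and Tpm2, a tropomyosin, from 408 and 419 to 152 and 163. In each of these 8 genes both knockdown libraries lay below both control libraries. The class requires this of the lost genes, and the 2-fold cut in both pairs makes it likely in the others. Cald1, Tpm1, Smtn, Des, Itga8 and Mylk stayed within 2-fold, and Mylk, the myosin light chain kinase, had a log2 ratio of 0.20 in both pairs.

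Sarcomeric muscle genes were mostly silent, with 18 of 28 at or below 2 in all libraries. Of the 8 above 2 in a population, Ldb3 (3.29 and 3.38 to 0.474 and 0.454), the troponin Tnnt3 (5.09 and 6.02 to 1.01 and 1.04) and the α-actinin Actn3 (2.96 and 4.61 to 0.842 and 1.45) were lost. Tnni1, another troponin, was gained at 2.73 and 2.17. Among all genes 2.40% fell or were lost and 2.95% rose or were gained.

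The wider actin cytoskeleton moved less far. Of 32 Srf-Mkl1 cytoskeleton genes 31 were above 2 in a population, and 25 were lower in both pairs. Only Fhl1, Dstn and Tagln2 fell, against 2.40% of all genes that fell or were lost. The median log2 ratio was -0.58 and -0.38 over the 30 included. Dstn, the actin-severing protein destrin, went from 323 and 311 to 135 and 126. Tagln2 went from 251 and 182 to 78.2 and 90.7. Near 2-fold lay filamin A (Flna, 1140 and 1040 to 525 and 540), vinculin (Vcl, 143 and 127 to 62.2 and 66.3) and Pdlim5 (75.6 and 74.7 to 37.8 and 42). Actb, the β-actin gene, had a log2 ratio of -0.02 and -0.19 at an FPKM above 2000. Both lists were lower in both pairs, the contractile genes by more.

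Genes that Srf drives with the TCFs were mixed and did not follow them down as a list. Of 24 early-response genes 19 were above 2 in a population, 10 of them higher and 6 lower in both pairs. Btg2, Fos and Egr1 rose, against 2.95% of all genes that rose or were gained, and none fell or was lost. The median over the 18 included was 0.30 and 0.27. Btg2, an antiproliferative gene, was at 3.57 and 3.49 in control and at 13.6 and 13.2 in Srf-knockdown NPCs. Fos went from 7.85 and 4.67 to 24.1 and 16.6. The zinc finger factor Egr1 went from 87 and 36.2 to 196 and 137, and its level in each population was higher at 0.5 kPa. Nr4a1 and Nr4a2, nuclear receptors of the same response, were lower in both pairs (log2 ratios -0.70 and -0.63, and -0.50 and -1.25), within 2-fold in at least 1.

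**Figure D2:**
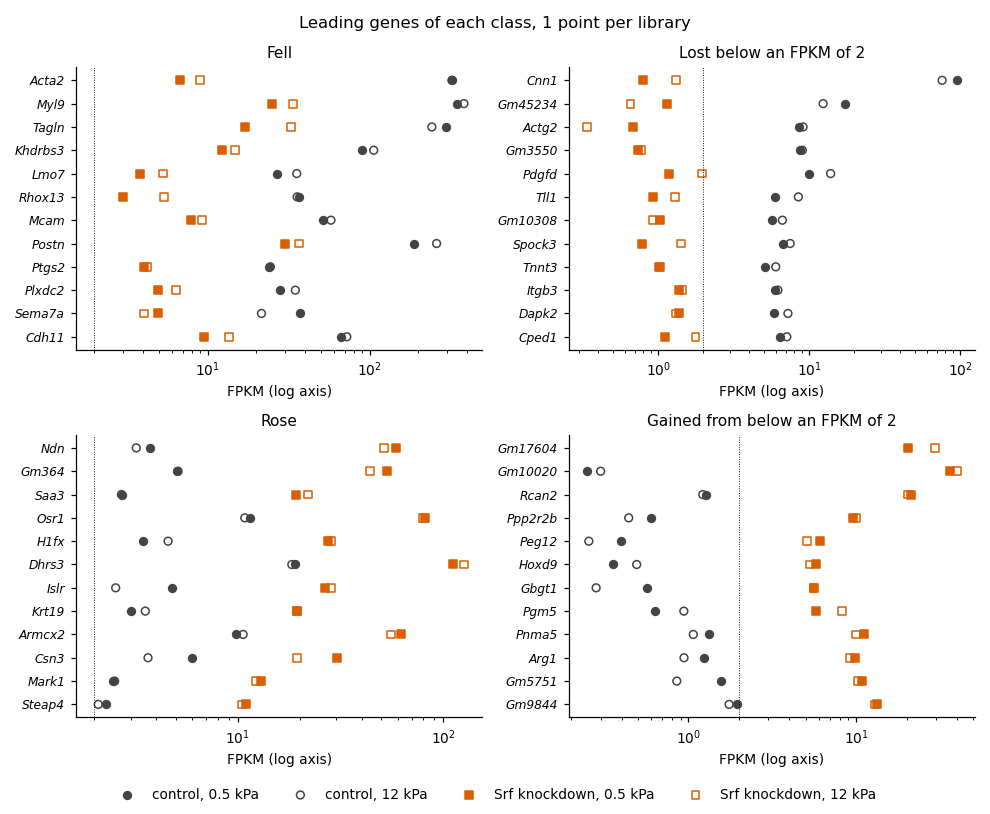
FPKM (log axis) of the 12 leading genes of each class, with circles for control and squares for Srf-knockdown NPCs, filled at 0.5 kPa and open at 12 kPa, and a dotted line at an FPKM of 2. In every gene shown the circles and squares do not overlap, and the distance between stiffnesses is small beside that between populations. The lost and gained classes require this separation, and the genes of the other classes were picked for large ratios. Gm17604 is listed at 0 in both control libraries, so that its circles are not drawn.

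Beside the contractile genes the leading falls belonged to varied functions. Khdrbs3, an RNA-binding splicing factor, was at 90.2 and 106 in control and at 12.2 and 14.7 in Srf-knockdown NPCs. Lmo7, a LIM protein of cell junctions, was at 26.7 and 35.5 against 3.85 and 5.3. Mcam, an adhesion molecule of the immunoglobulin family, was at 51.8 and 57.7 against 7.88 and 9.24. These genes were all more than 6-fold lower in both pairs. Ptgs2, the inducible cyclooxygenase, was 5.89-fold and 5.74-fold lower. Plxdc2, a receptor with a plexin domain, went from 27.8 and 34.8 to 4.96 and 6.36. Sema7a, a membrane-anchored semaphorin, went from 37.4 and 21.5 to 4.91 and 4.03. Rhox13, a homeobox gene on the X chromosome, fell 12.1-fold and 6.65-fold.

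Cadherins are the homophilic adhesion molecules of cell contacts. Of 15 cadherins and protocadherins above 2 in a population, the clustered protocadherins left out, 14 were lower in both pairs. The median log2 ratio was -0.47 in each pair. In this family 5 fell and 1 was lost, against 2.40% of all genes that fell or were lost. Of these 6, Cdh6, Cdh10 and Cdh18 lie in the first 60 Mb of chromosome 15 and Pcdh20 on chromosome 14, regions with a median of -0.39 and -0.46 at 0.5 kPa over all included genes. Cdh11 fell 7.07-fold and 5.32-fold, from 66.9 and 72.3. Pcdh19 fell from 59.9 and 57.8 to 22.2 and 21.6. Cdh10, Cdh18 and Cdh6, which are neighbors, fell with log2 ratios between -1.03 and -1.58, and Pcdh20 was lost. N-cadherin, Cdh2, was within 2-fold (44.5 and 47.9 to 33.8 and 37.3). The clustered protocadherins, with letters between prefix and number, were not counted here, and some of them went the other way. Pcdhgb2 rose from 5.44 and 4.92 to 11.3 and 9.96, and Pcdhgb5 was gained at 4.45 and 3.8.

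Integrins, the receptors that tie the matrix to the actin cytoskeleton, had the lowest median of the lists, -0.85 and -0.66 over 13 included genes. Of the 14 above 2 in a population 13 were lower in both pairs. Only Itga1 fell and Itgb3 was lost, against 2.40% of all genes that fell or were lost. Itga1, the α-chain of a collagen receptor, was at 10.2 and 12.1 in control and at 2.73 and 2.57 in Srf-knockdown NPCs. Itgb3, of the vitronectin receptor, was at 5.95 and 6.22 against 1.38 and 1.44. The common β-chain Itgb1 went from 250 and 251 to 139 and 136, and the fibronectin receptor chain Itga5 from 77.9 and 66.2 to 32.2 and 33.5.

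Genes of the matrix moved in both directions. Of 18 collagens above 2 in a population 4 fell, 2 rose and 1 was gained. Among all genes 2.40% fell or were lost and 2.95% rose or were gained. Collagen IV, the network of basement membranes, was split between its chains. Col4a1 fell from 580 and 481 to 150 and 157 and Col4a2 from 146 and 120 to 38.1 and 45. Col4a5 rose from 27.1 and 23.6 to 72.7 and 65.6, and Col4a6 from 13.8 and 11.7 to 54.9 and 54.2. Each of these gene pairs lies head to head on 1 chromosome, the first on chromosome 8 and the second on X. Col5a2, a chain of fibrillar collagen V, fell to 3.66 and 5.92 from 29 and 29.9, and Col18a1 fell from 167 and 117 to 51.4 and 48.7. Col14a1 was gained at 2.98 and 3.6.

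Of 31 matrix glycoproteins and proteoglycans above 2 in a population 4 fell, 3 rose and 2 were gained. The shares of all genes were 2.40% that fell or were lost and 2.95% that rose or were gained. Periostin, Postn, had the lead among those that fell, with 188 and 259 in control and 30.2 and 36.8 in Srf-knockdown NPCs. Tenascin C (Tnc) fell from 92.4 and 74.7 to 24 and 26.4, and the laminin chain Lama4 from 55.3 and 62.2 to 16.6 and 16.9. Decorin (Dcn) rose from 9.22 and 8.62 to 26.9 and 26.2, and another laminin chain, Lama5, from 33.5 and 24.2 to 77 and 79.4. Thrombospondins divided as well, Thbs1 falling from 43.8 and 61.4 to 21.8 and 30.6 and Thbs2 rising from 30.1 and 22.6 to 62.2 and 58. Enzymes that crosslink collagen showed the same split. Lox rose 5.6-fold at 0.5 kPa, from 13.5 to 75.6, and from 19.6 to 92.6 at 12 kPa, whereas Loxl2 fell from 78.5 and 70.9 to 22.4 and 22.9 and Loxl3 from 12.8 and 16.4 to 4.74 and 5.97. The protease Mmp3 fell, and Adamts1 and Adamts4 rose.

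Secreted signals and guidance cues changed in both directions. Of 31 genes of the FGF, EGF and PDGF pathways above 2 in a population 2 fell and 3 were lost, and none rose. Among all genes 2.40% fell or were lost. Pdgfd, a PDGF ligand, was lost from 10 and 13.9 to 1.19 and 1.96. Epiregulin (Ereg) was lost with log2 ratios of -2.42 and -2.45 and neuregulin (Nrg1) with -1.60 and -1.90. Fgf1 fell from 26.1 and 22.6 to 10.2 and 7.85, and Il17rd, an inhibitor of FGF signaling, from 42.8 and 48.4 to 16 and 17.1. Of 24 genes of the Wnt list above 2 in a population 1 fell and 3 were gained. More of the 24 were lower (13) than higher (8) in both pairs, with a median of -0.31 and -0.16 over the 20 included. The antagonist Frzb fell from 15 and 23.2 to 3.35 and 3.18, while Wnt6 (1.67 and 1.15 to 7.51 and 7.98), Wnt10a and the antagonist Dkk1 were gained. Among all genes 2.40% fell or were lost and 2.95% rose or were gained. Of 36 axon guidance genes above 2 in a population 4 fell, 2 rose and 1 was gained. In both pairs 20 of the 36 were lower and 11 higher. The semaphorins Sema7a, Sema3c, Sema3f and Sema6a fell, while the semaphorin receptor Nrp2 and the ephrin Efnb1 rose and Sema4d was gained. Of 15 IGF genes above 2 in a population, 8 were lower and 7 higher in both pairs. Igfbp3 fell from 216 and 194 to 57.1 and 78.9, Igfbp5 was lost and Igf1 was gained at 2.72 and 4.39. The shares of all genes given for the Wnt list stand beside both counts.

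Among the lost genes led by Cnn1, most are of low level. Only 15 of the 87 exceeded an FPKM of 5 in both control libraries. After the genes named above came Tll1, a protease that matures collagens (5.98 and 8.5 to 0.92 and 1.3), Spock3, a proteoglycan (6.68 and 7.5 to 0.787 and 1.42), the kinase Dapk2 and Cped1. Gm45234, Gm3550 and Gm10308 are predicted genes, Gm3550 a pseudogene by RefSeq, whose reads can be shared with related copies.

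Rising genes were led by the imprinted gene Ndn, which encodes the growth suppressor necdin. It lies at chr7:62348277-62349928 and was at 3.74 and 3.2 in control and at 58.6 and 51.3 in Srf-knockdown NPCs, 15.6-fold and 16-fold higher. Its neighbors moved with it. In the imprinted cluster of central chromosome 7, a list of 7 genes put together after these values were seen, Peg12 was gained at 6.1 and 5.12 from 0.394 and 0.255. Magel2 was gained at 3.23 and 3.33, Mkrn3 at 2.49 and 2.14, and Snurf rose from 15.6 and 15.7 to 55 and 46.7. Snrpn, which shares its locus with Snurf, had log2 ratios of 1.21 and 0.77. Ube3a, at the far end, was within 2-fold in both pairs. Of 15 listed imprinted genes above 2 in a population, which include Ndn, Peg12, Magel2 and Snrpn, 2 rose and 2 were gained, against 2.95% of all genes that rose or were gained. Of these 15, 9 were higher and 5 lower in both pairs, with a median of 0.20 and 0.64 over the 12 included. Dlk1, a Notch-like ligand of chromosome 12, rose from 94.2 and 79.5 to 346 and 366 and was the only called member outside chromosome 7.

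The other leading rises belonged to varied functions. Saa3, an acute-phase serum amyloid gene, went from 2.72 and 2.71 to 19.2 and 21.9, on 21.7 estimated reads in its lowest library. Osr1, a zinc finger factor of embryonic mesoderm, went from 11.5 and 10.8 to 81 and 79.7. H1fx, a linker histone, was 7.95-fold and 6.21-fold higher. Islr, a secreted leucine-rich repeat protein of stromal cells, went from 4.77 and 2.54 to 26.6 and 28.3. Krt19, a keratin, Csn3, a casein, the kinase Mark1 and the metalloreductase Steap4 were 4.79-fold to 6.51-fold higher. Gm364, a predicted gene of the X chromosome, went from 5.04 and 5.11 to 53.3 and 43.9.

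Genes of retinoic acid metabolism included a leading rise and were listed after it was seen. Dhrs3, which reduces retinal to retinol, went from 19 and 18.3 to 111 and 126. Cyp26b1, which degrades retinoic acid, rose from 3.85 and 3.33 to 16 and 19.1. Aldh1a2, which makes it, was gained at 4.52 and 7.43. The retinol transporter Stra6 was at 2.18 and 0.914 in control and at 13.2 and 13.9 in Srf-knockdown NPCs, and fell outside the classes because the control libraries lay on either side of 2. Of the 12 genes above 2 in a population 2 rose and 1 was gained, against 2.95% of all genes. The receptors Rara, Rarb and Rarg stayed within 2-fold, with log2 ratios between -0.17 and 0.64.

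Among interferon-stimulated genes 31 were above 2 in a population, and 5 rose and 3 were gained, against 2.95% of all genes, and none fell or was lost. The median over the 27 included was 0.34 and 0.35, and 27 of the 31 were higher in both pairs. Ifit3 went from 3.2 and 3.89 to 13.8 and 15.3, and Ifit1 from 4.94 and 4.81 to 16.3 and 19.6. Isg15, a ubiquitin-like modifier, went from 35.3 and 39.4 to 97.1 and 108. Usp18, which removes it, and Rtp4 rose as well. Zbp1, a sensor of nucleic acids, Ifit3b and Rsad2 were gained, Zbp1 at 2.39 and 2.41. Ifit3 and Ifit3b are near-identical copies, so that their reads can be shared. Whether the retroviral vector has a part in this was not tested. The MHC class I list had a median of -0.09 and -0.07. Of its 20 genes above 2 only H2-Q4 rose and Psmb8 was gained, against 2.95% of all genes.

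Of 116 members of developmental transcription factor families above 2 in a population 7 rose and 7 were gained, against 2.95% of all genes. Pax9 fell, against 2.40% of all genes that fell or were lost, and 71 of the 116 were higher in both pairs. Hox genes, which set position along the body axis, made up 6 of the 14 that rose or were gained. Of 39 Hox genes 29 were at or below 2 in all libraries. All 9 above 2 in a population were higher in both pairs, but only 3 of them were above 2 in all 4 libraries. The 5 gained ones passed this cut only through the Srf-knockdown libraries, which sets their direction. Hoxd9 was gained at 5.76 and 5.27 from 0.355 and 0.492, Hoxa7 at 5.33 and 5.24 from 0.863 and 1.12, and Hoxd4, Hoxa4 and Hoxa5 at lower levels. Hoxd8 rose from 2.67 and 3.04 to 10.4 and 9.8. Gata6 and Pitx1 were gained at an FPKM below 4. Dlx5 rose from 2.3 and 2.95 to 7.88 and 8.29. Id1 and Id2, inhibitors of bHLH factors that respond to BMPs, rose (Id2 from 9.79 and 11.2 to 46.6 and 47.8), as did the BMP feedback gene Smad6. Id1, Id2 and Smad6 were the only genes in a class among 27 of the TGF-β and BMP list above 2, against 2.95% of all genes. More of the 27 were lower (15) than higher (11) in both pairs, with a median of -0.30 and -0.19 over the 26 included. Id3 had log2 ratios of 0.88 and 0.89 and the receptor Bmpr1a -0.94 and -1.02.

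X-linked genes of the Armcx, Bex and Mage families, are a list chosen after seeing values, which partly sets their direction. All 12 above 2 in a population were higher in both pairs, 7 rose and Bex1 was gained, against 2.95% of all genes that rose or were gained. On the X chromosome as a whole 9.77% of the included genes rose. The median over the 11 included of the list was 1.35 and 1.25, beside 0.31 and 0.25 for X. Armcx2 went from 9.8 and 10.6 to 62.5 and 55.5, Maged1 from 148 and 157 to 375 and 372 and Bex3 from 108 and 116 to 296 and 283. Armcx5 was nearly level (log2 ratios 0.01 and 0.02).

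The gained genes hold the largest folds and the lowest read numbers. Gm17604 was listed at 0 in both control libraries and at 20.3 and 29.4 in Srf-knockdown NPCs. Gm10020, a pseudogene by RefSeq, was 146-fold and 132-fold higher, but rested on 3.01 estimated reads in its lowest library, with standard errors of 0.83. Among protein-coding genes Rcan2, an inhibitor of calcineurin, led with 1.27 and 1.22 in control and 21.2 and 20.3 in Srf-knockdown NPCs. Ppp2r2b, a regulatory subunit of protein phosphatase 2A, went from 0.597 and 0.441 to 9.61 and 9.99. Gbgt1, a glycosyltransferase, and Pgm5, a protein of adhesion plaques, were 8.72-fold to 19.8-fold higher. Arginase, Arg1, went from 1.24 and 0.942 to 9.81 and 9.24. Pnma5 and Gm5751 lie on X, and Gm9844 is a further pseudogene.

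Several gene groups had few members or none in a class. All 36 genes of DNA replication and the cell cycle were included, none was in a class, and their median was 0.07 and -0.02. The same held for the 25 expressed housekeeping genes (median 0.11 in each pair) and the 9 expressed Notch genes. Pfkfb3 and Pfkp, enzymes of glycolysis, fell, the only ones in a class among 30 genes of glycolysis and hypoxia. Pdia6, a disulfide isomerase, was alone in a class among 26 unfolded-protein and heat shock genes, falling from 261 and 262 to 80.1 and 81.5. Targets of Yap, the other stiffness-sensing factor, were mixed. Of 17 expressed, Ankrd1 was lost (4.72 and 3.97 to 1.38 and 1.5), F3 fell and Gadd45b rose, with a median of -0.31 and -0.23. Among all expressed genes 5.34% were in a class.

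Cytosolic ribosomal protein genes had a median of 0.39 and 0.37 over 73 genes, and 60 were higher in both pairs. The GC content of the transcript moved with the ratios across all genes. From the tenth of genes with the lowest GC content to that with the highest, the median log2 ratio went from -0.18 to 0.22 at 0.5 kPa and from -0.28 to 0.35 at 12 kPa. The part of GC content in shifts of this size was not tested. With ratios centred among genes of like GC content, 142 of the 165 genes that fell and 130 of the 170 that rose and had a GC value were still past 2-fold. Of 11 mitochondrially encoded genes above 2 in a population mt-Nd3 and mt-Nd4l fell, against 2.40% of all genes that fell or were lost. They rested on as few as 26 and 45 estimated reads, and the log2 ratios of mt-Nd4l were -1.49 and -2.96. The list had a median of -0.02 at 0.5 kPa and -0.59 at 12 kPa, so that it did not agree between the pairs.

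**Figure D3:**
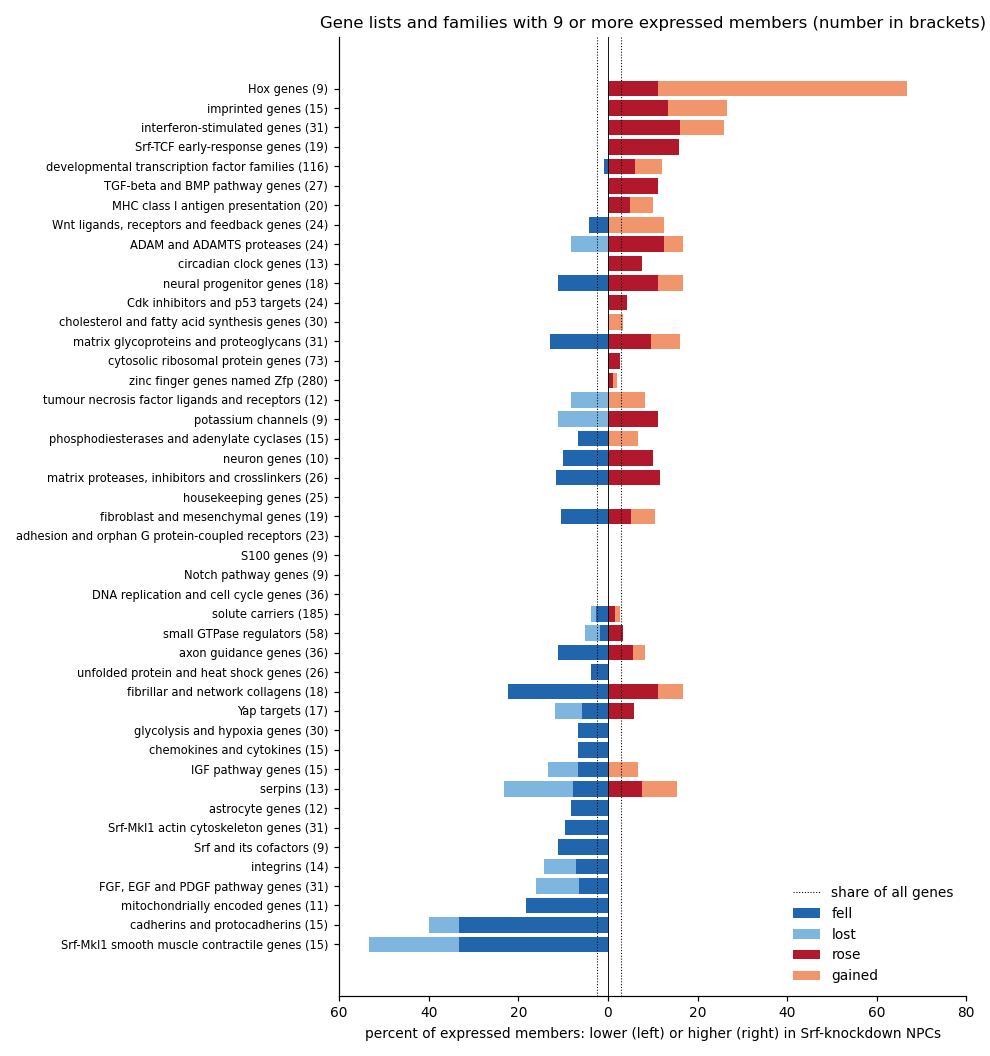
Share of the expressed members of each gene list or family (above an FPKM of 2 in both libraries of a population, number in brackets) that fell or were lost (left) and rose or were gained (right), in percent, with dotted lines at the share of all expressed genes. Contractile genes and cadherins, the latter without the clustered protocadherins, lie at the bottom with lower members only. Hox genes lie at the top with higher members only, while cell cycle, Notch and housekeeping genes have no bar. Most of the higher Hox genes were gained, and so passed the cut of 2 only in Srf-knockdown NPCs.

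The labelled cell type was checked by its markers. Of 35 listed neural progenitor genes 16 were at or below 2 in all libraries, and Sox1, Hes5, Olig2, Nr2e1 and Nkx2-2 were at 0 in all 4. Vim (1700 and 1480 in control), Meis2, Zic1, Nes and Cdh2 were present. Mesenchymal genes were present too, with Col3a1 at 1730 and 1580 and Prrx1 at 222 and 213. Progenitor genes went in both directions with the knockdown. Nes, the intermediate filament nestin, fell from 51.6 and 36.1 to 16.4 and 15.5, and the glutamate transporter Slc1a3 from 27.7 and 36.7 to 9.99 and 13.2. Sox2 rose from 4.29 and 5.49 to 19.1 and 20.4, Meis2 rose from 74.2 and 63 to 151 and 166, and the RNA-binding protein Msi1 was gained at 3.91 and 3.74. Pax6, a regulator of neural progenitors, was at 2.62 and 3.46 in control and at 6.49 and 6.78 in Srf-knockdown NPCs, past 2-fold at 0.5 kPa only. Prom1 went from 8.96 and 7.58 to 2.1 and 1.88. Sox2 is also an inducible transgene in these cells, and its reads need not be endogenous. The other transgene factors had log2 ratios of 0.81 and 1.39 (Pou5f1, at or below 2.26 throughout), 0.34 and 0.45 (Klf4) and 0.76 and 0.97 (Myc). Among neuron genes, of which 22 of 32 were at or below 2 in all libraries, Stmn2 rose from 19.1 and 18.7 to 64.6 and 61.3.

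Markers of other cell types were read in the same way, since in a culture fewer cells of a type and less RNA per cell cannot be told apart. Of 12 mural cell genes, markers of pericytes, 5 were above 2, Mcam fell and the summed FPKM went from 94.2 and 102 to 55.6 and 67.4. Mcam alone, at 51.8 and 57.7 against 7.88 and 9.24, made up this drop. Pdgfrb (17.6 and 18.2 to 26.7 and 30) and Notch3 (3.13 and 3.2 to 5.21 and 6.93) were in no class, and the median was -0.12 and 0.35. The defining Rgs5, Kcnj8 and Abcc9 were at or below 0.329 in all 4 libraries. Of 20 fibroblast and mesenchymal genes 19 were above 2, Postn and Cdh11 fell, Dcn rose, Lum was gained, and the sum of 4280 and 3840 stood against 4150 and 3950 after knockdown. Epithelial genes went from a sum of 53.3 and 40.8 to 106 and 100, with Krt8 and Krt19 rising and Cldn7 gained, but Cdh1 was at or below 0.205 and Epcam had log2 ratios of -0.31 and -0.05. Of the microglia and macrophage genes Tmem119 rose from 17.7 and 19.1 to 41 and 45.7, while Adgre1, Tyrobp, C1qa, C1qb and C1qc were at 0 throughout. Endothelial Emcn was gained at 5.29 and 4.92, while Plvap (14 and 9.79 to 6.75 and 4.93) and Flt1 (6.05 and 4.99 to 2.47 and 3.6) were in no class. Of the 5 endothelial genes above 2 in a population 3 were lower in both pairs, with a median of -0.61 and -0.28, and Cdh5, Kdr and Tie1 were at or below 0.0362. Oligodendrocyte genes had no member in a class. The part of such cells in the changes was not tested.

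Whole chromosomes differed between the populations. On chromosome 14 the median log2 ratio was -0.46 and -0.42 over 346 included genes, and 89.6% and 84.4% of them were lower in Srf-knockdown NPCs. There 14 genes fell, 8 were lost and none rose. The shift ran along the entire chromosome, with medians between -0.62 and -0.34 at 0.5 kPa in all 13 stretches of 10 Mb. On chromosome 15 the median was -0.39 and -0.38 over the 116 genes of the first 60 Mb and -0.11 and -0.06 over the 295 beyond. The last 40 Mb of chromosome 13 had -0.28 and -0.34 over 112 genes. The X chromosome went the other way, 0.31 and 0.25 over 348 genes, and 34 of these (9.77%) rose. Chromosome 15 as a whole had -0.19 and -0.13 and chromosome 13 -0.11 and -0.14. On the remaining autosomes the medians lay between -0.10 and 0.14.

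Between 12 and 0.5 kPa the median of chromosome 14 was -0.0145 within control NPCs and 0.0355 after knockdown. In the comparison of knockdown with control, with ratios centred among genes of like GC content it was still -0.44 and -0.38, and that of X 0.32 and 0.29. The Y-linked gene Eif2s3y was at 1.74 and 1.89 in control and at 1.39 and 2.12 in Srf-knockdown NPCs. A median of -0.46 corresponds to a ratio of 0.728. Whether the DNA of the populations differs was not measured, and a difference between the cells that were sequenced cannot be told apart from the knockdown. Several genes named above lie in these regions. Relative to the median of its chromosome the mean log2 ratio of Lmo7 was -2.33 in place of -2.77, that of Ldb3 -2.41 in place of -2.85, that of Loxl2 -1.28 in place of -1.72, that of Khdrbs3 -2.71 in place of -2.87 and that of Armcx2 2.25 in place of 2.53. With every ratio taken so, 173 genes were lower and 154 higher past 2-fold, and without chromosomes 14, 15 and X 141 fell and 148 rose.

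**Figure D4:**
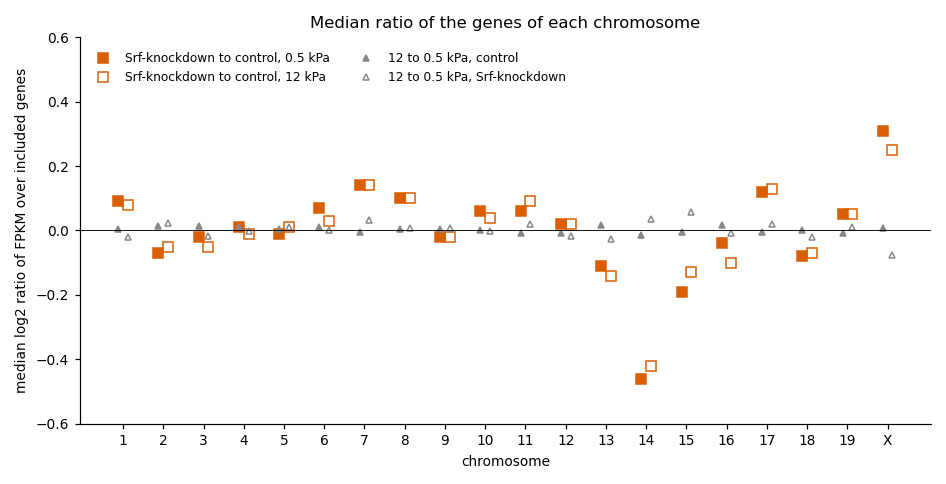
Median log2 ratio of FPKM over the included genes of each chromosome, with squares for Srf-knockdown to control NPCs at 0.5 kPa (filled) and 12 kPa (open) and triangles for 12 to 0.5 kPa within control (filled) and within Srf-knockdown NPCs (open). Chromosome 14 lies at -0.46 and -0.42 and X at 0.31 and 0.25, while the triangles stay near 0 on all chromosomes.

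On a smaller scale runs of neighbors moved together. In 10827 windows of 10 neighboring genes, 5% had a median log2 ratio at 0.5 kPa below -0.38 and 5% above 0.37. The lowest lay at chr9:4294793-7794333, with a median of -1.37 and -1.27. In it the glutamate receptor gene Gria4, the inflammatory caspase gene Casp4 and Pdgfd were lost, and Casp12, Mmp3 and Tmem123 fell (Tmem123 from 87.5 and 84.8 to 33.9 and 34.3). The cadherin window at chr15:13028699-27681603 had -0.79 and -0.88. Upward stood the Hoxa window (chr6:52155367-53820825, 1.39 and 1.45), the imprinted cluster (chr7:55978484-62464510, 1.51 and 1.17) and a stretch of X (chrX:71555917-73202930, 1.17 and 1.23) with Pnma5 and the Xlr genes Xlr3a and Xlr3b, which are near-identical copies. These windows were picked for their medians and are given as descriptions.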

How the data were processed

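RNA of control and Srf-knockdown NPCs at both stiffnesses was sequenced as 4 stranded mRNA libraries, 1 per condition. The deposited values are FPKM, which the authors made with Cufflinks 2.2.1 after trimming (cutadapt 1.9.1) and alignment to mm10 (TopHat2 2.1.0, Bowtie2 2.2.8). FPKM is scaled by depth and transcript length, so depth was estimated here from the steps of low values and covers counting error only. Of 21997 entries, 63 symbols listed more than once (135 entries) were left out.

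Log2 ratios used no pseudocount. Named genes were, in each class, the 12 with the largest smaller-of-pair log2 ratio above an FPKM of 10 (5 for lost and gained) in the higher population, up to 5 per list or family by the same measure, defining markers, the 5 most opposed genes and the genes the study names. Others were named after their values were seen, to complete a count or to show members in no class. The members and lists were chosen with earlier results of these data known, and the retinoic acid, chromosome 7 and X-linked lists after values were seen. Lengths and GC content came from transcripts matched by symbol (91.2% of included genes), positions and promoters from RefSeq GRCm38.p6. Predicted pseudogenes, actin, histone and Xlr copies can share reads and are uncertain. Python 3.11.15, pandas 2.3.3, R 4.3.3 and limma 3.58.1 were used, limma, tested on simulated data, for an alternative only. The alternatives were other FPKM minimums, folds, a pseudocount, centring, single pairs and an additive limma fit. A few genes are not reported here.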

Additional observations from a re-analysis of the deposited data

Results flagged for a closer look

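Of the included genes 84.6% had ratios of the same sign at both stiffnesses. The 5 with the most opposed ratios are given here, and the difference between the stiffnesses was not tested. Gm17349, a predicted gene, was at 4.68 and 2.02 in control and at 2.16 and 4.22 in Srf-knockdown NPCs, so that its log2 ratio was higher at 12 kPa by 2.18, on 4.87 to 26.3 estimated reads. Gm29609 differed the same way by 1.59 (3.59 and 2.65 against 2.22 and 4.94). Zfp93, a zinc finger gene, had a difference of -2.07 (2.65 and 9.69 against 5.27 and 4.59). Slc15a4, a lysosomal transporter, had -1.88 (13.4 and 29 against 27.9 and 16.4). Tmem159 had -2.15 (9.14 and 21.8 against 14.1 and 7.52).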

How the results depend on the processing

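The labels give no replicate numbers, and libraries were paired by stiffness throughout. The main counts were 179 genes that fell, 183 that rose, 87 lost and 144 gained. With a minimum FPKM of 5, 111 fell and 98 rose. With a pseudocount of 1, 57 were lost and 88 gained. At 1.5-fold 647 fell and 695 rose, and 69.3% of the genes past it at 0.5 kPa were past it at 12 kPa. At 4-fold 21 fell, 23 rose, 34 were lost and 51 gained, and of the genes past it at 12 kPa 75.9% were past it at 0.5 kPa. The pair at 0.5 kPa alone gave 300 that fell and 152 lost, and that at 12 kPa alone 287 that rose and 230 gained. Centring among genes of like GC content raised the share of genes past 2-fold at 12 kPa that were past it at 0.5 kPa from 69.6% to 77.8%. An additive limma fit has a term for stiffness and 1 residual degree of freedom, and treats the 2 ratios of a gene as repeats. It called 2431 lower and 2625 higher at an adjusted p (2897 and 3104 unadjusted), including all 179 and 183. Its p-values measure the spread between the ratios at the 2 stiffnesses only. Centring on each chromosome's median, chosen after seeing the data, gave totals of 173, 154, 77 and 135, of which 153, 137, 73 and 132 were in the same class before. Of 1770 values of 223 named genes under the alternatives, 327 moved by more than the SD between the pairs. A reversed sign was looked for only in the named genes of a class, and 0 values reversed. Those genes are past 2-fold in both pairs, so that this count says little, and sign changes of the other named genes were not counted. Low genes rest on few reads, and without replicate libraries the spread between cultures is unknown.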
